A study of Mus musculus with 2 samples.

Results

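The nuclear transport module examined here comprised 48 genes on a mouse expression array: the nucleoporins that build the nuclear pore, the importins, transportins and exportins that carry cargo through it, Ran and its partner Ranbp1, and Ncbp2 of the nuclear cap-binding complex. Members were chosen by a rule on gene names, with earlier results of these data known. They come from 19715 named genes with a usable probe on both arrays. The 48 genes were represented by 101 probes on 119 spots. A reading well above background on at least 1 array was obtained for 47 genes, and Nup210, a membrane-spanning nucleoporin, did not reach that mark. On both arrays 85 of the 101 probes were well above background, 3 were so on 1 array and 13 on neither.

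RNA came from NIH3T3, an established mouse embryonic fibroblast line, transfected with the plasmid pcDNA3.1. In 1 group the plasmid was empty, and in the other it carried MARVELD1, the gene of a small membrane-spanning protein. Both groups were kept as stable lines under G418, which kills cells that lack the plasmid's resistance gene, and the study asked how MARVELD1 alters the expression profile of these fibroblasts. Each group was measured on 1 single-colour Agilent array, so no spread between cultures exists, no test between groups was made, and every difference below is a description of 2 arrays. Whether each line was 1 clone or a pool of resistant cells is not given in the sources used here.

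The arrays had alike overall signal, with 68.7% and 69.0% of spots well above background on the empty vector array and the array labelled MARVELD1, and both lay on 1 slide read in 1 scan. The transfected gene did not read higher under its label: the brighter Marveld1 probe read 8725 with the empty vector and 6293 on the array labelled MARVELD1, a log2 difference of -0.34. Whether the probe reads the plasmid insert is not known, so each direction below rests on the label alone. All 7 fibroblast markers were detected (Col1a1, Col1a2, Vim, Thy1, Pdgfra, S100a4 and P4hb), with intensities from 1683 to 233931. Markers of other cell types were partly detected, at 32.1 to 1289: all 3 endothelial markers (Cdh5 highest at 1289 and 708.5), all 4 myeloid markers (Csf1r at 670.5 and 502.1, Cd68 at 262.6 and 351.5), Myod1 at 553.8 and 764.6 and Acta1 for muscle, and Krt8 for epithelium. The epithelial markers Cdh1 and Epcam and the muscle marker Des were not above background. In the fibroblast list 5 of 7 read lower on the array labelled MARVELD1, with a median log2 difference of -0.35, and the median of 11 proliferation genes was 0.15. The part of these shifts in the results below was not tested, and with bulk RNA, fewer cells of a type and less RNA per cell cannot be told apart.

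The nuclear pore is a ring-shaped channel through the nuclear envelope. A Y-shaped complex and an inner ring form its scaffold, nucleoporins rich in phenylalanine-glycine repeats fill the channel, and filaments and a basket project to the cytoplasmic and nuclear sides. Importins bind cargo in the cytoplasm and release it in the nucleus when they meet Ran bound to GTP, whereas exportins bind their cargo together with Ran-GTP and release it in the cytoplasm when the GTP is hydrolysed. The nuclear cap-binding complex, Ncbp1 with Ncbp2, sits on the cap of new transcripts and links them to splicing and export.

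Each value is the processed fluorescence intensity of a probe, in arbitrary units. The log2 difference is the value on the array labelled MARVELD1 minus that on the empty vector array, after each array was scaled to its 75th percentile, so positive values are higher on the array labelled MARVELD1. Intensities are printed unscaled, the empty vector array first and the array labelled MARVELD1 second, and folds come from the scaled difference. A gene is represented by its brightest probe unless another is named, and levels are not compared between genes because probes differ in brightness. From probes printed several times on each array, the SD of a log2 difference between single spots was 0.17 at intensities of 2000 or more, 0.32 from 200 to 2000 and 0.59 below 200. This is the error of the array reading only, and it applies to every single-spot value below by its brightness.

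Most members read modestly higher on the array labelled MARVELD1. Among the 47 measured genes, 39 had a log2 difference above 0 and 8 below, with a median of 0.44 and a range from -3.61 to 1.05. All 16545 genes measured also leaned the same way under this scaling, with 65.6% above 0, a median of 0.19 and quartiles at -0.14 and 0.50. Set against that median, the members' median was 0.25 higher, and 35 members lay above it and 12 below.

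**Figure D1:**
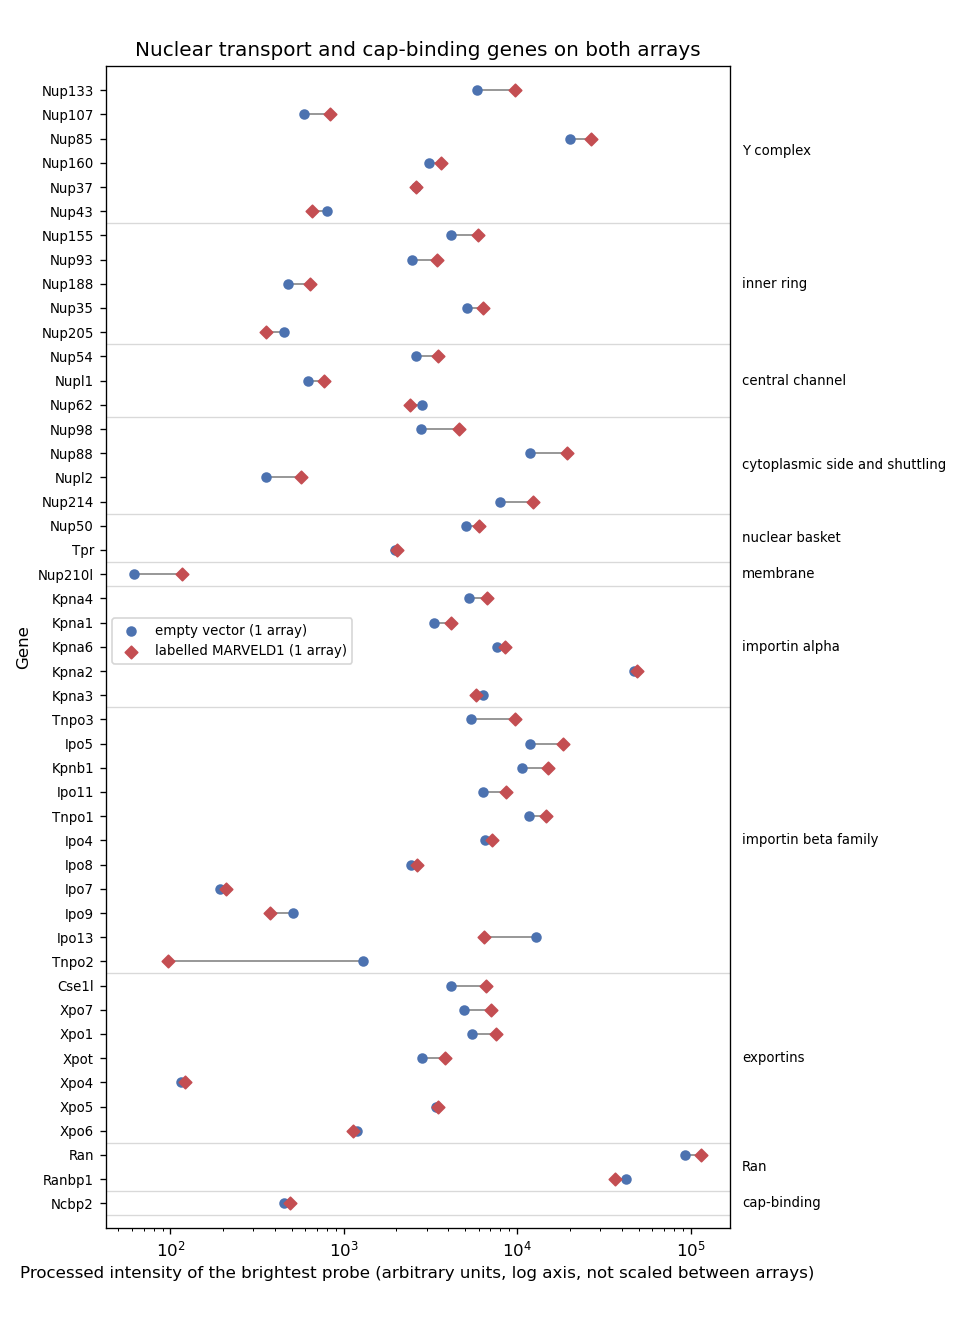
Processed intensity of the brightest probe of each of the 47 measured genes (log axis, arbitrary units, not scaled between arrays), grouped by role; circles are the empty vector array and diamonds the array labelled MARVELD1, 1 array each. Most pairs lie close together with the diamond to the right, and Tnpo2 stands apart at 1294 against 96.8.

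Few members passed 2-fold. Only Nup210l did so upward, 1 of 47 or 2.13%, where 5.4% of all genes read at least 2-fold higher. Only Tnpo2 did so downward, again 2.13%, where 3.5% of all genes read at least 2-fold lower. At 1.5-fold, 15 members or 31.9% read higher, against 19.4% of all genes, and 2 members or 4.26% read lower, against 8.84% of all genes. The counts depend on the scaling. With median scaling 9 of 47 members read 1.5-fold higher, against 14.7% of all genes. With loess on mean signal, quantile normalization and normexp, 5, 7 and 5 of 47 did, against 12.6%, 14.2% and 9.9%. Under those 3 the members lie near the share of all genes. With loess 2 members read 1.5-fold lower, against 12.9% of all genes, and at 2-fold 0 read higher and 2 lower, against 4.41% and 4.93%. The 15 genes were Nup88, Nup93, Nup98, Nup107, Nup133, Nup155, Nup210l, Nup214, Nupl2, Kpnb1, Ipo5, Tnpo3, Xpo1, Xpo7 and Cse1l, and the 2 lower genes were Ipo13 and Tnpo2.

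The pore and its carriers differed in their medians. The 21 nucleoporins, Tpr included, had a median log2 difference of 0.55, which is 0.36 above the median of all genes, and 16 of them lay above that median. The 23 importins, transportins and exportins had a median of 0.28, or 0.09 above it, with 17 above. Within these carriers the 7 exportins had a median of 0.57, the 5 importin alpha genes 0.28 and the 11 importin beta genes 0.27. The split of pore from carriers was made after the values were seen. It was the same in direction under each of the 5 scalings, with 0.34 to 0.37 for nucleoporins and 0.09 to 0.11 for the carriers. These are not 5 separate checks. Median scaling shifts every gene alike, which cancels against the median of all genes, so it could not move these values. Normexp was run with quantile normalization, so it shares a step with that scaling. The same limits hold for the ranges over the 5 scalings given for other groups. The nucleoporin value dropped to 0.20 when all probes of a gene were averaged.

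**Figure D2:**
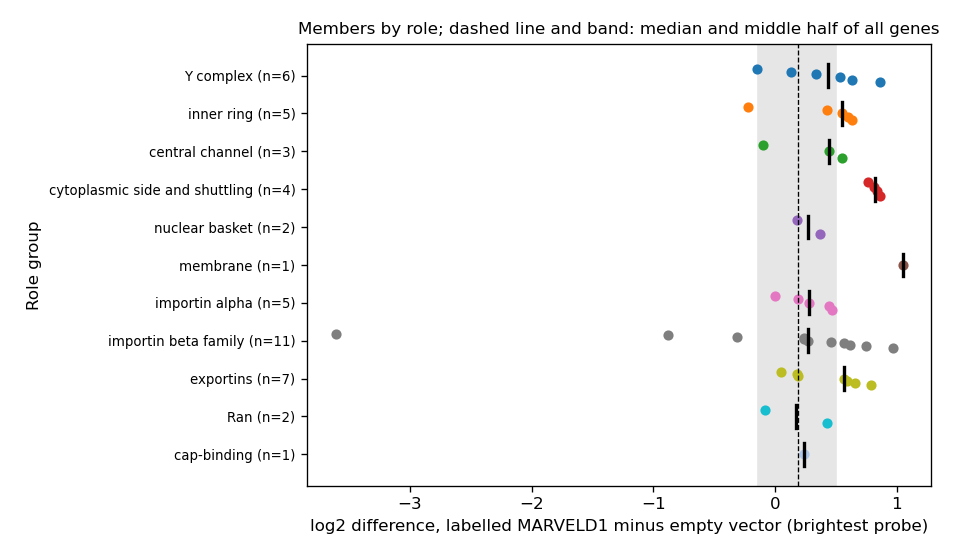
Log2 difference of the brightest probe of each measured gene (horizontal axis, labelled MARVELD1 minus empty vector), in rows by role; black bars are medians, the dashed line is the median of all genes (0.19) and the grey band runs between the quartiles of all genes, -0.14 and 0.50. The 4 genes of the cytoplasmic side lie together between 0.76 and 0.86, and the importin beta family reaches from -3.61 to 0.97.

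The cytoplasmic side of the pore had the narrowest range of the groups with 3 or more genes. Nup214 and Nup88 form the cytoplasmic platform on which messenger ribonucleoprotein particles and export complexes are released, Nupl2 is a filament protein that binds the export factor Gle1, and Nup98 is a mobile repeat protein found on both faces of the pore. All 4 read at least 1.5-fold higher on the array labelled MARVELD1, as did 19.4% of all genes, with a median log2 difference of 0.82. With quantile normalization, loess or normexp only Nup98 and Nupl2 did so, and Nup214 and Nup88 gave 0.48 and 0.55 with loess. Relative to all genes this median was 0.63, and it stayed between 0.52 and 0.63 over the 5 scalings.

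Nup98 read 2769 with the empty vector and 4604 on the array labelled MARVELD1, a log2 difference of 0.86, or 1.82-fold higher. Nup88 read 11821 and 19329.5, a difference of 0.84 or 1.79-fold. Nup214 read 7993 and 12351, a difference of 0.76 or 1.69-fold. Relative to all genes these are 0.67, 0.65 and 0.57, and the single-spot SD at that brightness, which holds reading error only, is 0.17. Nupl2 was dimmer, at 355.5 and 569.0, with a difference of 0.81 or 1.75-fold and an SD of 0.32.

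Second probes read the same way for 3 of these 4 genes. The second Nup88 probe read 803.7 and 1481, a difference of 1.01, and that of Nup98 read 551.9 and 753.3, a difference of 0.58. The second Nupl2 probe read 279.1 and 360.8, a difference of 0.50. Nup214 was the exception: its second probe, 920 bases nearer the 3′ end of the gene, read 429.6 and 379.0, a difference of -0.05. Taking the most 3′ probe therefore put Nup214 0.25 below the median of all genes.

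The 250 bases before the RefSeq start of these 4 genes are shown because these members read most alike. The sequences are on GRCm38.p6 and written 5′ to 3′ on the strand of the gene, and for Nup98, which has 2 starts in that table, the more upstream is given. Capitals mark a CCAAT box (CCAAT, or ATTGG on the other strand) and a GC box (GGGCGG, or CCGCCC), the motif letters bound by NF-Y and by Sp1-type factors.
Nup214, chr2:31974200-31974449, plus strand: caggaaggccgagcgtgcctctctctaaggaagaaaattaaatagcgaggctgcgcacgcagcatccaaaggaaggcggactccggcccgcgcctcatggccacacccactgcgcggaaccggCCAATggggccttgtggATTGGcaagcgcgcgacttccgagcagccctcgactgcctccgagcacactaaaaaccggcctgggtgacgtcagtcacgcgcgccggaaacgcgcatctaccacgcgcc
Nup88, chr11:70969974-70970223, minus strand: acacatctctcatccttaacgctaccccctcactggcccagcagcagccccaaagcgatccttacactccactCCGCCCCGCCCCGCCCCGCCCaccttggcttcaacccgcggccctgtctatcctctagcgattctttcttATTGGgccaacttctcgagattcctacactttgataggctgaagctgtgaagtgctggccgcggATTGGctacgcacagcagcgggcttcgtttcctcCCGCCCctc
Nupl2, chr5:24164713-24164962, plus strand: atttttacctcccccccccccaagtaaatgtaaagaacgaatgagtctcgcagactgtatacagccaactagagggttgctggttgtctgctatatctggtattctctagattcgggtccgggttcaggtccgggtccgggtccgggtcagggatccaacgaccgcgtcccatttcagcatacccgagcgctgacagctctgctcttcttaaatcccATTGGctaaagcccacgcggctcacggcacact
Nup98, chr7:102210167-102210416, minus strand: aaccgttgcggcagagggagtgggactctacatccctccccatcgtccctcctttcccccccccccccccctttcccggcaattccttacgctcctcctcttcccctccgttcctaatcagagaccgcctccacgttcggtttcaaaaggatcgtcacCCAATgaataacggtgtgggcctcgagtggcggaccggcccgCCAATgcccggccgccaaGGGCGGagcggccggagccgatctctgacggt

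The printed windows held 2 CCAAT boxes in Nup214, 2 in Nup88, 1 in Nupl2 and 2 in Nup98. The window of the other Nup98 start, chr7:102209868-102210117, held 0 CCAAT boxes and 3 GC boxes, so the match depends on the start chosen. Nup88 also held 5 GC boxes, 4 of them in 1 overlapping run, and the printed Nup98 window held 1. Over the module, 37 of the 48 genes were matched to 44 promoter windows of this length in the RefSeq table. A CCAAT box was present in 22 of the 44 and in 33.8% of all 32851 windows, and a GC box in 61.4% against 32.7%. Members' windows were also richer in G and C, with a median of 64.2% against 52.4% and 22 CpG dinucleotides against 6, so motifs made of G and C are met more often in them. Searched on both strands as well were CCGGAAG, the core bound by ETS factors, in 15.9% against 6.9%, and the E-box CACGTG, in 15.9% against 6.0%. The NRF1-type motif stood in 15.9% against 3.7%, the YY1-type motif AAGATGGCG in 4.5% against 0.6%, and TATAAA in 9.1% against 12.4%. A match describes letters only, and binding was not measured.

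Of the Y complex, the outer scaffold of the pore, 6 members were measured and 5 read above 0, with a median of 0.44, or 0.25 above all genes. Nup133, one of the proteins at the stem of the Y, led with 5857 against 9747, which is 1.82-fold higher and a log2 difference of 0.86. Nup107, its direct partner in the stem, read 589.8 and 833.7, a difference of 0.63 or 1.54-fold. Nup85 and Nup160, on the arms, differed by 0.53 and 0.34, and Nup37, a small propeller protein, by 0.13 at 2598 and 2606. At the other end, Nup43, a small propeller protein of the complex, read 794.4 and 655.4, a difference of -0.15, which is within the single-spot SD of 0.32. Its second probe differed by 0.26, so the direction of Nup43 depends on the probe.

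The inner ring, which anchors the channel to the scaffold, had 5 measured members with a median of 0.55, or 0.36 above all genes. That median is the value of Nup188, whose probes disagree. The group stood 0.20 above all genes when probes were averaged and 0.24 above by the most 3′ probe. Nup155, a large ring protein at the membrane, read 4160 and 5910, a log2 difference of 0.63, and a second bright probe read 2036 and 3010, a difference of 0.69. One more Nup155 probe, at 281.1 and 212.1, differed by -0.28. Nup93, the organising protein of the ring, read 2477 and 3447 on its only probe, a difference of 0.60. Nup35, a small ring protein that touches the membrane, gave 0.43 on its only probe. Nup188, a large ring protein, gave 0.55 on 1 probe at 476.9 and 639.7, but -0.28 and -0.42 on 2 probes nearer its 3′ end. Nup205, a large paralogue of Nup188, was the lowest of the ring at 452.9 and 354.9, a difference of -0.22. Its other probe, 33384 bases upstream in the genome, read 215.7 and 365.0, a difference of 0.89, and the gene has no settled direction.

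In the central channel, where Nup62, Nup54 and Nupl1 form a repeat-rich assembly, the partners did not read alike. Nup54 read 2595 and 3469, a log2 difference of 0.55, and Nupl1 read 618.2 and 766.2, a difference of 0.44, while Nup62 read 2828 and 2413, a difference of -0.10. Nup62 lay below the median of all genes under all 10 settings tried (the one used here and 9 alternatives), from -0.31 to -0.21 relative to it, and Nup54 lay above it in all 10. Some of the 9, such as median scaling, could hardly move a gene relative to that median. The direction of the group as a whole did not hold: its median was 0.25 above all genes by the brightest probe and 0.09 below when probes were averaged.

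On the nuclear basket, Nup50, which helps release cargo from importin alpha, had a probe printed on 10 spots per array. On the empty vector array the spots ran from 4497 to 5746 with a median of 5140, and on the array labelled MARVELD1 from 5417 to 6588 with a median of 5998. These ranges overlap before scaling. Scaled to the arrays' 75th percentiles, 768.1 and 703.3, they do not, and the log2 difference was 0.37 with a technical SE of 0.044. How often other repeated probes separate after scaling was not counted. Tpr, the coiled-coil protein that builds the basket filaments, read 1963 and 2031, a difference of 0.18 that is close to the median of all genes. Its other probe, at 2128 and 775.6, gave -1.33, so the Tpr value depends on the probe.

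Nup210l, a relative of the pore membrane protein Nup210, was the only member past 2-fold upward. It read 61.6 with the empty vector and 117.1 on the array labelled MARVELD1, 2.08-fold higher, a log2 difference of 1.05. At this brightness the single-spot SD is 0.59. With normexp background correction its difference from all genes was 0.43 in place of 0.86, and its second probe stayed near background on both arrays.

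The importin alpha proteins, adaptors that read the classical nuclear localisation signal and hand cargo to Kpnb1, lay close to all genes. The 5 measured members had a median log2 difference of 0.28, or 0.09 above all genes, and over the 5 scalings this ran from -0.03 to 0.09, so its sign is not fixed. Kpna4 was highest, at 5269 and 6703 with a difference of 0.47. Kpna1 read 3323 and 4120, a difference of 0.44, and Kpna2 read 46799 and 48942, a difference of 0.19. Kpna3 was lowest, at 6347 and 5802 with a difference of 0.00, although its 2 dimmer probes gave 0.33 and 0.52. None of the 5 passed 1.5-fold by its brightest probe, where 19.4% of all genes read higher and 8.84% lower. With probes averaged the group's median lay 0.14 below all genes.

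The importin beta family carries cargo directly or through an adaptor, and it had the widest range of the groups. Past 1.5-fold, 3 of its 11 members read higher and 2 lower, where 19.4% and 8.84% of all genes did. With loess, Ipo5 and Kpnb1 no longer read 1.5-fold higher. The family's median was 0.27, or 0.08 above all genes. With all probes averaged its median lay 0.34 below all genes, so the direction of the group is not fixed. Tnpo3, which imports serine- and arginine-rich splicing factors, read 5438 and 9738, 1.96-fold higher, a log2 difference of 0.97. A second Tnpo3 probe gave -1.30 at 577.3 and 215.0, and averaging the probes turned Tnpo3 from 0.78 above all genes to 0.34 below. Ipo5, an importer of ribosomal proteins and histones, read 11846.5 and 18291, a difference of 0.75 or 1.69-fold. Its other probes gave 0.89 and 0.24, so all 3 Ipo5 probes read higher. Kpnb1, the importin beta that serves the classical pathway, read 10677 and 14974, a difference of 0.62 or 1.53-fold, but its dimmer probe, at 732.7 and 622.4, gave -0.11.

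Downward, Ipo13, which both imports and exports cargo, read 12899.8 with the empty vector and 6426 on the array labelled MARVELD1, 1.84-fold lower, a log2 difference of -0.88. The single-spot SD is 0.17, Ipo13 has 1 probe here, and relative to all genes it lay between -1.21 and -1.03 in all 10 settings. Ipo9, an importer of core histones, read 506.8 and 375.2, a difference of -0.31 that is within the SD of 0.32. It too stayed below all genes in the 10 settings, from -0.51 to -0.35.

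For the other family members the brightest probes gave 0.57 for Ipo11, 0.27 for Ipo4, and 0.24 for both Ipo7 and Ipo8. Ipo7, which imports ribosomal proteins and linker histone, was dim at 193.1 and 209.0, and its other probes gave -0.14 and -0.69. Ipo11 likewise gave -0.37 on a dimmer probe at 218.0 and 154.8. The single-spot SD of each of these dimmer probes is 0.59, which only the -0.69 exceeds. Whether the probes of either gene differ in direction is therefore not resolved.

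Tnpo2, a close paralogue of Tnpo1 in the import of RNA-binding proteins, gave the largest difference of the module. Its brighter probe read 1294 with the empty vector and 96.8 on the array labelled MARVELD1, 12.2-fold lower, a log2 difference of -3.61, and 0.3% of all genes lay as low or lower. Its second probe read 143.1 and 119.1, a difference of -0.14. Tnpo1, on 1 probe, read 11618 and 14665, a difference of 0.46. The first 30 bases of both Tnpo2 probes are given, since these 1733 bases of chromosome 8 separate the readings, and no letters in them are marked.
Tnpo2, chr8:87578927-87578986 on mm9, difference -0.14: acaacgaggagaaggattctgccttccgag
Tnpo2, chr8:87580660-87580719 on mm9, difference -3.61: atgattatttccagattagctgtggaaatg

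The large value comes from the more 3′ probe alone, and the other probe's -0.14 is within its single-spot SD of 0.59. Relative to all genes the difference was -3.80, and it was -2.84 with normexp background correction and -2.02 when both probes were averaged.

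**Figure D3:**
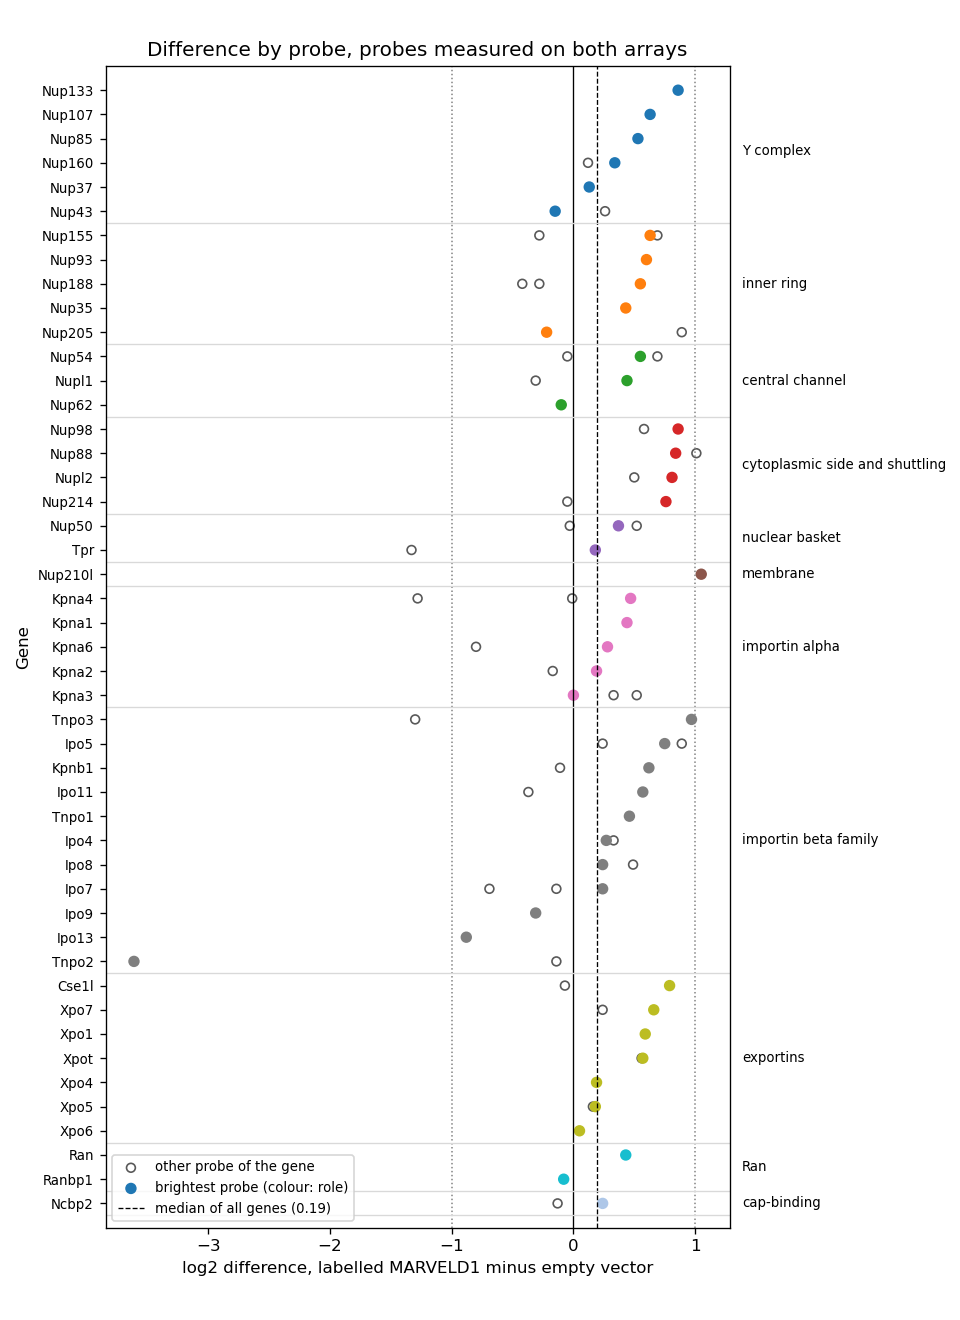
Log2 difference (horizontal axis, labelled MARVELD1 minus empty vector) of each probe well above background on both arrays, 1 row per gene; filled points are the brightest probe, coloured by role, open points the other probes, the dashed line the median of all genes (0.19) and dotted lines 2-fold. Tnpo2, Tnpo3, Tpr and Kpna4 have probes more than 1 log2 unit apart.

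The 7 measured exportins had a median log2 difference of 0.57, or 0.38 above all genes (0.29 to 0.38 over the 5 scalings). Past 1.5-fold, 3 of 7 or 42.9% read higher, where 19.4% of all genes did. This count depends on the scaling. With median scaling only Cse1l of these 3 did so, where 14.7% of all genes did. With loess, Cse1l, Xpo7 and Xpo1 lay 0.52, 0.38 and 0.30 above all genes, whose median was 0.04. None of them passed 1.5-fold there, where 12.6% of all genes did. All 7 lay above 0, as did 65.6% of all genes, and 5 of 7 lay above the median of all genes. Relative to that median Xpo4 and Xpo5 stood at 0.00 and Xpo6 at -0.14. Cse1l, which returns importin alpha to the cytoplasm, read 4150 and 6572, a difference of 0.79 or 1.73-fold. Its dimmer probe read 1012 and 883.1, a difference of -0.07. Xpo7, a broad-specificity exportin, read 4903 and 7092, a difference of 0.66 or 1.58-fold.

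Xpo1, the exporter of proteins with a leucine-rich export signal, read 5451 and 7513, 1.51-fold higher, a log2 difference of 0.59. A dim probe at the 3′ end of Xpo1 was well above background only on the array labelled MARVELD1, at 121.7 against 35.4, and was at least 3.63-fold higher there. For this bound the dim reading, or the lowest well-measured reading of that array if higher, was taken as the ceiling. Xpot, the tRNA exporter, gave 0.57 and 0.56 on 2 probes. Xpo5, the exporter of microRNA precursors, gave 0.18 and 0.16, and Xpo6, the actin exporter, was lowest at 0.05, with 1189 and 1128. Xpo4, an exporter of a translation factor, was dim at 115.5 and 120.9 and gave 0.19.

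Ran, the GTPase that gives transport its direction, read 93136 with the empty vector and 114983 on the array labelled MARVELD1, 1.35-fold higher, a log2 difference of 0.43. Ranbp1, which helps hydrolysis of GTP on Ran in the cytoplasm, read 42234 and 36557, a difference of -0.08. Ranbp1 stayed below all genes in all 10 settings, from -0.45 to -0.23, and Ran stayed above in all 10, but by only 0.03 with loess scaling.

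Ncbp2, the cap-gripping subunit of the cap-binding complex, read 453.5 and 490.0, 1.18-fold higher, a log2 difference of 0.24, which is within the single-spot SD of 0.32. Its second probe gave -0.13. Ncbp1, the large scaffold subunit, appeared in the files under the older name AU014645 and so fell outside the naming rule. Its brighter probe read 1208 and 1584, a difference of 0.52 or 1.43-fold, and its dimmer probe 100.8 and 110.9, a difference of 0.27.

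Probes of a gene often lay on both sides of the median of all genes, 0.19. The counts of sides make no allowance for reading error. Nup160, at 0.12 and 0.34, counts as split, and Xpo5, at 0.18 and 0.16, counts as below. Of the 30 genes with 2 or more probes measured on both arrays, 8 had every probe above the median of all genes, namely Nup88, Nup98, Nupl2, Ipo4, Ipo5, Ipo8, Xpo7 and Xpot. For Tnpo2, Tpr and Xpo5 every probe lay below it, and the other 19 genes, 63.3%, were split. Among 5459 other genes 21.3% lay wholly above, 31.8% wholly below and 46.9% were split. The second Xpo7 probe lies on the strand opposite to the gene, and its reading is not evidence on Xpo7.

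In some genes the probes differed by more than 1 log2 unit, 6 of 30 against 20.2% of other genes. These were Tnpo2, Nup205, Tpr, Tnpo3, Kpna4 and Kpna6. Kpna4, an importin alpha, gave 0.47 at 5269 and 6703, but a probe 1111 bases upstream read 848.6 and 320.5, a difference of -1.28. A probe still further upstream, 1834 bases from the bright one, read 130.7 and 118.5, a difference of -0.01, so Kpna4 has no steady trend along the gene. Kpna6 gave 0.28 on its bright probe and -0.80 on a dim one at 262.6 and 138.3.

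In Tpr and Tnpo3 the upstream probe also gave the lower value. The upstream Tpr probe, which spans an intron in its mm9 coordinates and lies 35190 bases from the other, read 2128 and 775.6, 2.51-fold lower, a log2 difference of -1.33. The upstream Tnpo3 probe, 19055 bases from the brightest one, read 577.3 and 215.0, a difference of -1.30 or 2.46-fold lower. Both sequences are printed in full because they read against the 3′ probes of the same genes, and no letters in them are marked.
Tpr, chr1:152261633-152261808 on mm9, plus strand, difference -1.33: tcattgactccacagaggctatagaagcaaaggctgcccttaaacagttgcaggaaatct
Tnpo3, chr6:29510151-29510210 on mm9, minus strand, difference -1.30: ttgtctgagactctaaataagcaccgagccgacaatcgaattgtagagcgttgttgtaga

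Position within the gene went with these readings. In 29 members with probes at least 500 bases apart, the most 5′ probe gave the lower log2 difference in 18, or 62.1%, with a median gap of -0.29. Other genes on the arrays did likewise: 67.7% of 4603 genes had the lower difference at the 5′ end, with a median gap of -0.28. The 5′ probe was lower by more than 1 log2 unit in 3 members, 10.3% (Tnpo3 at -2.27, Tpr at -1.51 and Kpna6 at -1.07), and in 13.2% of other genes. The 5′ probe was also the dimmer one in 79.3% of members and 70.6% of other genes. The members' gap therefore lay near that of all genes, and the part of probe position in the members' values was not tested. Among the members that ran the opposite way, Tnpo2 and Nup205 had the largest gaps, 3.48 and 1.11, followed by Nup188 at 0.97 and Nup214 at 0.81.

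**Figure D4:**
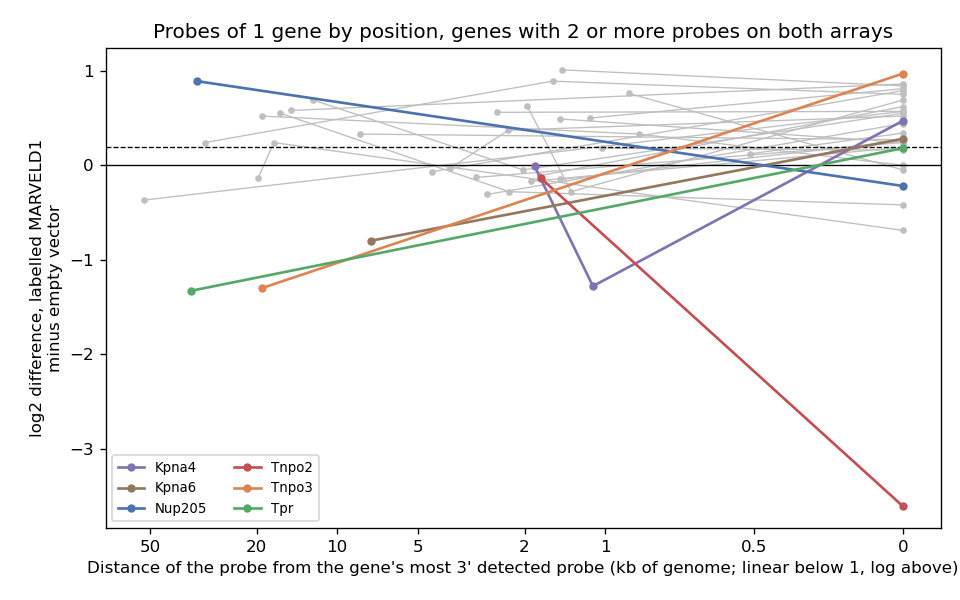
Log2 difference of each probe (vertical axis, labelled MARVELD1 minus empty vector) against its distance in the mm9 genome from the most 3′ detected probe of its gene (horizontal axis in kb, linear below 1 and logarithmic above), for genes with several probes on both arrays; lines join probes of 1 gene and the dashed line is the median of all genes. Tpr and Tnpo3 climb toward the 3′ end from -1.33 and -1.30, whereas Tnpo2 drops to -3.61.

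Repeated spots show what the arrays can resolve. An Ipo8 probe was printed 10 times on each array, and Ipo8 is an importin that also binds Argonaute proteins. Its spots ran from 614.5 to 749.0 on the empty vector array (median 683.4) and from 840.1 to 906.7 on the array labelled MARVELD1 (median 888.4), so the ranges do not overlap. The scaled log2 difference was 0.49 with a technical SE of 0.029. How often the spots of other repeated probes separate in this way was not counted, so the separation does not single out Ipo8. The spots repeat the same RNA within each array and hold no spread between cultures. The brightest Ipo8 probe, at 2434 and 2635, gave 0.24 from a single spot, for which the SD is 0.17.

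**Figure D5:**
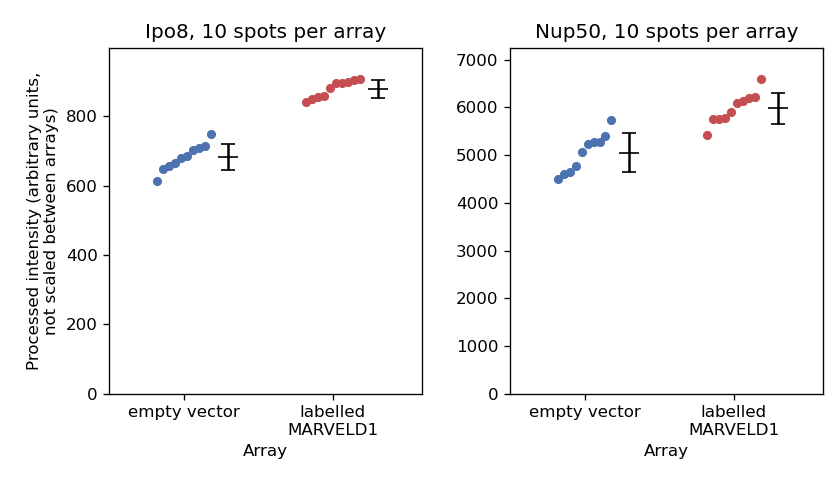
Processed intensity (vertical axis from 0, arbitrary units, not scaled between arrays) of the 10 spots of 1 probe each for Ipo8 and Nup50 on each array, sorted by value, with the mean and the SD of the 10 spots beside them; the spots are technical repeats of 1 RNA sample. Unscaled, the Ipo8 spots separate, at most 749.0 against at least 840.1, and the Nup50 spots overlap. After scaling, the spots of both probes separate, and how often other repeated probes do so was not counted.

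Other genes of the pathway, from a list of 42 of which 41 were measured, had a median log2 difference of 0.31, or 0.12 above all genes. Past 1.5-fold, 8 or 19.5% read higher, where 19.4% of all genes did, and 6 or 14.6% read lower, where 8.84% did. Past 2-fold, 1 read higher and 2 lower. The 9 further pore proteins had a median of 0.54, with 4 past 1.5-fold higher (Pom121, Rae1, Ahctf1 and Ranbp2) and 0 lower. The 20 measured mRNA export factors were mixed, with 2 past 1.5-fold higher, 5 lower and a median of 0.25. Alyref, an adaptor that loads the export receptor onto mRNA, read 13883 and 5493, or 2.31-fold lower, and Rangrf, a Ran-binding factor, read 11801 and 22452, or 2.08-fold higher. Ranbp17, a relative of Xpo7, read 100.2 on the empty vector array and was not well above background on the other, at least 2.41-fold lower. The 8 Ran regulators and adaptors had a median of 0.20, and the 4 genes linked to the cap-binding complex one of 0.06.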

How the data were processed

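Per the labels, total RNA of both lines was labelled with Cy3 and hybridised to single-colour Agilent arrays. Per the file headers, the deposited spot intensity was read, background-subtracted and detrended by Feature Extraction 9.5.3.1, with no scaling between arrays. The authors' deposited table divides these intensities by 1 factor per array (124.6 and 123.3, within 1% for 99.7% and 99.8% of probes).

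From each array, control spots and outlier spots (116 and 223) were left out, and 0 spots were saturated. The log2 intensity minus the array's 75th percentile was averaged over repeated spots. A gene took its probe with the highest mean among those well above background on at least 1 array. Other genes were named through RefSeq (GRCm38.p6), and probe coordinates are the files' own, on mm9. No mm9 annotation was used, so exon or untranslated position is not given, and only 30 bases are printed of probes that may lie in an untranslated region.

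Members, lists and named genes (1.5-fold or more, the extremes of each role, Ran, Kpnb1, Xpo1, Ncbp2, and spreads over 1 log2 unit) were chosen with earlier results of these data known. Further members are given as values. 1 nucleoporin gene is not reported here. With 1 array per group no test was run. Alternatives used limma 3.58.1 (R 4.3.3) and Python 3.11.15, and the steps were tested on simulated data.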

Additional observations from a re-analysis of the deposited data

How the results depend on the processing

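No paired analysis was possible because each group had 1 array. Of 30 named genes under 9 alternatives each, 270 values in all, 246 moved by less than the technical SD of the gene's brightest probe and 24 moved further. This is the single-spot SD, except for Nup50, where 10 spots were averaged and it is 0.05. Median scaling and the authors' table apply 1 factor per array, which cancels against the median of all genes. Changing the detection filter left the brightest probe of each named gene in place. These alternatives could hardly move a value, and all 24 came from the others. Such alternatives also add little to the counts over scalings and settings below. Relative to all genes, 10 of the 30 changed side under at least 1 alternative, in 13 values. By the mean of all probes, Tnpo3 went from 0.78 to -0.34, Kpna4 from 0.29 to -0.42, Kpna6 from 0.09 to -0.41, Nup205 from -0.41 to 0.18, Kpna3 from -0.19 to 0.13 and Ncbp2 from 0.05 to -0.10. By the most 3′ probe, Nup214 went from 0.57 to -0.25 and Nup43 from -0.34 to 0.06. Xpo6 went from -0.14 to 0.15 with normexp, and the other 4 such values were of Kpna6 and Tpr. Tnpo2 and Nup210l, which passed 2-fold, kept their side. Relative to all genes, 31 of 47 members lay above the median in all 5 scalings, 9 below and 7 on both sides. Over 10 settings, 23 lay above in all and 5 below in all (Nup62, Tnpo2, Ipo13, Ipo9 and Ranbp1).

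The number of members past 2-fold higher was 1, and it was 0 with median scaling, quantile normalization, loess, normexp, the authors' deposited table or a 3-fold limit, 2 with the mean of all probes or the most 3′ probe, and 15 at 1.5-fold. The number past 2-fold lower was 1, and it was 2 with quantile normalization, loess, normexp or a 1.5-fold limit. The members' median relative to all genes, 0.25, became 0.17 with quantile normalization and also with normexp, 0.15 with loess and 0.14 by the mean of all probes. By that mean, the central channel stood at -0.09, the nuclear basket at -0.29, the importin alpha group at -0.14, the importin beta family at -0.34 and the nucleoporins, a grouping added after seeing the data, at 0.20. Without the filter on dim probes the membrane group stood at 0.41, because Nup210 then joins it. The other causes were not tested. Dim probes limit what can be read, since their single-spot SD is 0.59.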
